A study of Homo sapiens with 15 samples.

Results

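Zinc finger (ZNF) genes that lie outside chromosome 19 were examined for MPP8 binding in the chronic myeloid leukaemia line K-562. The members are the RefSeq protein-coding genes whose symbol is ZNF followed by a number and at most 1 letter, not on chromosome 19 and not in the dense groups on chromosomes 16 (3.0 to 3.6 Mb), 7 (63 to 66 Mb) and 12 (132.8 to 133.3 Mb, hg38). They number 238 of 509 such ZNF genes and of 20037 protein-coding genes. A member was counted as carrying a peak when a deposited MPP8 peak overlapped its annotated body or lay within 1 kb of an end. ChIP-seq peak lists of 2 samples were used, both made with an antibody to MPP8: 1 library from K-562 cells knocked out for TASOR by CRISPR/Cas9 (TASOR KO), and 1 from K-562 cells knocked out for TASOR2 in the same way (TASOR2 KO). Knockout cells were grown from single sorted colonies, so each genotype may stand for 1 clone. The titles name no transgene for either, and whether these cells received the empty puromycin vector of the protocol is not stated. The other 13 samples of the series, with the unedited and MPP8 knockout cells among them, were not analysed here, so the background of the antibody at these genes was not measured. With 1 library per genotype no difference between genotypes can be tested, and every interval below covers counting error only and treats genes or peaks as independent.

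MPP8 carries a chromodomain that binds histone H3 methylated at lysine 9, and it works with TASOR and periphilin in the human silencing hub (HUSH), which silences LINE-1 elements and other invading DNA. TASOR2 is the paralog of TASOR. Most ZNF genes encode proteins with arrays of C2H2 fingers that bind DNA, and many of these proteins carry a KRAB domain, which recruits TRIM28 and the histone methyltransferase SETDB1. The finger array of such a gene is usually encoded by a single long exon at the end of the gene, and this exon is known to carry methylated lysine 9 of histone H3 in many human cells.

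Scattered ZNF genes carried few peaks in either knockout. A TASOR KO peak was present at 6 of 238 members (2.52%, exact binomial 95% interval 0.931 to 5.41), where 1.12% of all protein-coding genes and 0.925% of those off chromosome 19 had one. A TASOR2 KO peak was present at 14 of 238 members (5.88%, 3.25 to 9.67), against 0.893% of all protein-coding genes and 0.651% of those off chromosome 19. The intervals of the 2 knockouts overlap. The lower bound in TASOR KO lies below the share of all protein-coding genes and next to that of genes off chromosome 19. The lower bound in TASOR2 KO lies well above both shares. These reference shares include the members themselves. Of protein-coding genes off chromosome 19 that are not ZNF genes, 0.857% (0.729 to 1.00) had a TASOR KO peak. The lower bound of members in TASOR KO lies above that share but inside its interval. One member, ZNF721, had a peak of each list (0.17% of all protein-coding genes and 0.0807% of those off chromosome 19 had both). The remaining 219 members had none. On chromosome 19, 47 of 246 ZNF genes (19.1%, 14.4 to 24.6) had a TASOR KO peak and 55 (22.4%, 17.3 to 28.1) a TASOR2 KO peak, and neither interval overlaps that of the scattered genes. In the 3 left-out groups the counts were 9 of 25 (36.0%, 18.0 to 57.5) and 10 of 25 (40.0%, 21.1 to 61.3).

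**Figure D1:**
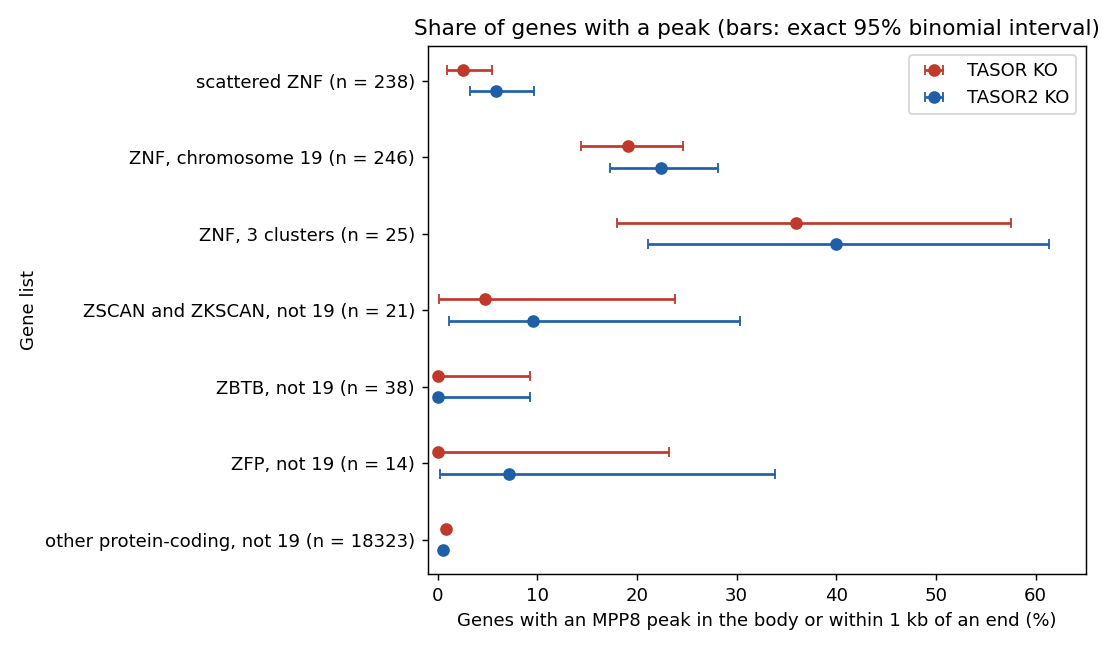
Share of genes positive for an MPP8 peak, by overlap with the gene extended by 1 kb (x axis, percent), for each gene list (y axis), in TASOR KO (red) and TASOR2 KO (blue), 1 library each. Points are shares and bars are exact 95% binomial intervals. The points of scattered ZNF genes, at 2.52% and 5.88%, lie between those of other protein-coding genes and of the ZNF genes of chromosome 19. In TASOR KO their interval overlaps that of other protein-coding genes.

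The lists bound what these counts can show. They hold 427 TASOR KO and 264 TASOR2 KO peaks. Numbers in the peak names run with gaps from 1612 to 13397 and from 1 to 1512, so each is a part of a longer list. The TASOR KO list has no peak on chromosome 1, where 20 members lie, and the TASOR2 KO list has none on chromosomes 14, 15, 22 and X, where 26 lie. Among the members on chromosomes with peaks, 6 of 218 (2.75%, 1.02 to 5.89) and 14 of 212 (6.60%, 3.66 to 10.8) were positive. Under the same restriction, so were 157 of 15880 (0.989%) and 97 of 15765 (0.615%) protein-coding genes off chromosome 19 that are not ZNF genes. Reads per library are not part of the lists, the depth is therefore unknown, and a member without a peak is not shown to lack MPP8.

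The start of transcription lay inside a TASOR KO peak at ZNF502, ZNF485 and ZNF239, and inside no TASOR2 KO peak at any member with a listed promoter. The 250 bases before the RefSeq start of these 3 genes are shown because the peaks cover them, followed by those of ZNF12 and ZNF510, the members of known strand with the strongest TASOR2 KO peaks, which no peak covers. Sequences are from RefSeq (GRCh38.p14), 5′ to 3′ on the strand of the gene, and capitals mark CCAAT on either strand. They are chr3:44712410-44712659 (plus strand), chr10:43606188-43606437 (plus), chr10:43574617-43574866 (minus), chr7:6706948-6707197 (minus) and chr9:96778088-96778337 (minus).
ZNF502: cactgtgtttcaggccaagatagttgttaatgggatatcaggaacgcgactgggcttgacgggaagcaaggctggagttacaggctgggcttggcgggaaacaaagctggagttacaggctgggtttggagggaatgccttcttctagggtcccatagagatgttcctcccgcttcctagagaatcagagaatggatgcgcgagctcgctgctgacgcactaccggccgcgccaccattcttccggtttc
ZNF485: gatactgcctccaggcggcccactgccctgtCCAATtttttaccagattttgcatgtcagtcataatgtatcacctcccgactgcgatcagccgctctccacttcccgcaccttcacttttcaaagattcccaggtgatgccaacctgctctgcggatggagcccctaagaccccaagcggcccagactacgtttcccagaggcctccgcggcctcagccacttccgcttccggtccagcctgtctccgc
ZNF239: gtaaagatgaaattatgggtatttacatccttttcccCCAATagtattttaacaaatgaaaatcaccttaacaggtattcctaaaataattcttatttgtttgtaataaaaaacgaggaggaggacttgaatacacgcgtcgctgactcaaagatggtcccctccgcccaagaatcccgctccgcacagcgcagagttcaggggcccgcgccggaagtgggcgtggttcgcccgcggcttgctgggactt
ZNF12: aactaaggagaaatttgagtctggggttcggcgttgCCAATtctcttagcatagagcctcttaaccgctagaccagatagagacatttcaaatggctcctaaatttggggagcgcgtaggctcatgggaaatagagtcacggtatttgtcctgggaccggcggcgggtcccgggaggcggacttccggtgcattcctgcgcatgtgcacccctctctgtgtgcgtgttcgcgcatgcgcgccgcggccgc
ZNF510: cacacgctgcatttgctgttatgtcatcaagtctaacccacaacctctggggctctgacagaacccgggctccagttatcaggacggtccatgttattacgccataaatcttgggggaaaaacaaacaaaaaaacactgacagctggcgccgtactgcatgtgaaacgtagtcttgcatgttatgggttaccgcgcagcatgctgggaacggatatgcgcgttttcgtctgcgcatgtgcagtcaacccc
CCAAT was found in 2 of the 3 promoters covered by a TASOR KO peak, in 92 of 260 promoters of 189 members (35.4%) and in 32.7% of 22199 promoters of protein-coding genes. None of the 3 held the E-box CACGTG, which 7.37% of all promoters held on either strand. The same was true of the GATA motif AGATAA (7.09% of all promoters), of the TATA motif TATAAA (9.0%) and of the interferon-stimulated response element (2.71%). CpG dinucleotides numbered 13 in ZNF502, 13 in ZNF485, 15 in ZNF239, 21 in ZNF12 and 14 in ZNF510, beside a median of 19 over promoters of members and 16 over all promoters. Each of the 3 covered promoters thus had fewer CpG than the median over members. So did some that no peak covered, such as those of ZNF510, ZNF197 (11) and ZNF37A (12), while ZNF12 had more.

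Peaks are ranked within their list by the deposited −log10 q, and folds are enrichments given by the authors' peak caller. The TASOR KO peaks at members were of moderate rank, with folds from 3.15 to 4.09 (median 3.58, list median 3.35). At ZNF502 (gene ID 91392, chromosome 3, 44712660 to 44723831) the peak chr3:44708681-44713718 was 5038 bp wide, with fold 3.58, −log10 q 1.88 and rank 93 of 427. Of its bases, 3979 lay upstream of the gene and the remaining 1059 covered its first part. ZNF485 (gene ID 220992, chromosome 10, 43606438 to 43617904) was the only member with 2 peaks of a list. The first, chr10:43605512-43607927, covered the start with fold 3.82, −log10 q 1.80 and rank 100. The other, chr10:43614160-43617376, lay inside the gene and ended 528 bp before its end, with fold 3.56, −log10 q 0.950 and rank 173. ZNF485 is thus the one member with TASOR KO signal at both its start and its end.

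At ZNF239, which encodes a protein reported to bind both DNA and RNA (gene ID 8187, chromosome 10, 43556344 to 43574616, minus strand), the peak chr10:43573828-43576936 covered the start and was weak, with fold 3.15, −log10 q 0.621 and rank 250. ZNF37A (gene ID 7587, chromosome 10, 38094337 to 38150293) carried a narrow peak of 743 bp well inside the gene, chr10:38118061-38118803, which had the highest fold of the 7 (4.09, −log10 q 1.70, rank 108). ZNF804B (gene ID 219578, chromosome 7, 88759700 to 89338528), a paralog of the schizophrenia-associated gene ZNF804A, is 578.829 kb long. Its peak, chr7:89138875-89140828, lay inside the gene, 197700 bp from the nearer end, with fold 3.22 and −log10 q 0.615. A q of 0.05 or less was reached at 4 of the 6 members, ZNF502, ZNF485, ZNF37A and ZNF721 (1.68%, 0.460 to 4.25, where 0.514% of all protein-coding genes and 0.425% of those off chromosome 19 reached it).

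The TASOR2 KO peaks at members included some of the strongest of that list. Folds ranged from 3.57 to 4.85 over 13 distinct peaks (median 3.95, list median 3.92), and ranks from 10 to 249 of 264. ZNF12, which encodes a KRAB zinc finger repressor (gene ID 7559, chromosome 7, 6688433 to 6706947, minus strand), had the highest: the peak chr7:6689121-6693853 was 4733 bp wide with fold 4.85, −log10 q 2.42 and rank 10. ZNF510, another KRAB zinc finger gene (gene ID 22869, chromosome 9, 96754553 to 96778087, minus strand), followed with chr9:96756263-96758694, fold 4.60, −log10 q 2.12 and rank 17. ZNF3 (gene ID 7551, chromosome 7, 100063837 to 100082577, minus strand) had a peak of 5775 bp, chr7:100067228-100073002, with fold 4.28, −log10 q 1.72 and rank 40. All 3 peaks lay inside the gene and toward its transcript end.

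Members without the common KRAB architecture also carried wide TASOR2 KO peaks. ZNF292, which encodes a large zinc finger protein mutated in a neurodevelopmental disorder (gene ID 23036, chromosome 6, 87155565 to 87265943), had the widest, chr6:87255593-87261789, with 6197 bp, fold 4.40, −log10 q 1.84 and rank 30. ZNF518B, whose product binds the histone methyltransferase G9a (gene ID 85460, chromosome 4, 10439880 to 10461365, minus strand), had chr4:10441962-10447955, with 5994 bp, fold 4.09, −log10 q 1.48 and rank 61. With ZNF721 these were the 6 members with a TASOR2 KO peak at a q of 0.05 or less (2.52%, 0.931 to 5.41, against 0.299% of all protein-coding genes and 0.242% of those off chromosome 19).

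The other 8 TASOR2 KO members rested on peaks with a q above 0.05. The peak chr3:44642183-44645908 (fold 3.95, −log10 q 1.18, rank 110) lay inside ZNF197, which encodes a KRAB protein that binds the von Hippel-Lindau protein, and counted also for ZNF35, because it ended 598 bp before the annotated body of that gene. It lay 2824 bp from the start listed for ZNF35 in the promoter table, so the 2 genes share 1 peak and ZNF35 depends on the choice of annotated end. ZNF195 (chr11:3356852-3361151, fold 3.82, −log10 q 0.914) was the single member whose TASOR2 KO peak crossed the transcript end. ZNF451, which encodes a SUMO ligase (chr6:57102012-57103544, fold 3.81, −log10 q 0.910), and ZNF518A, the paralog of ZNF518B (chr10:96158988-96160028, fold 3.63, −log10 q 0.666), had peaks of 1533 and 1041 bp in the earlier part of long genes. ZNF391 (chr6:27400918-27401953, fold 3.67, −log10 q 0.757), ZNF251 (chr8:144742816-144743416, fold 3.68, −log10 q 0.702) and ZNF655 (chr7:99573545-99574141, fold 3.57, −log10 q 0.663) had the narrow peaks of 1036, 601 and 597 bp. These ranked 215, 236 and 249 of 264.

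**Figure D2:**
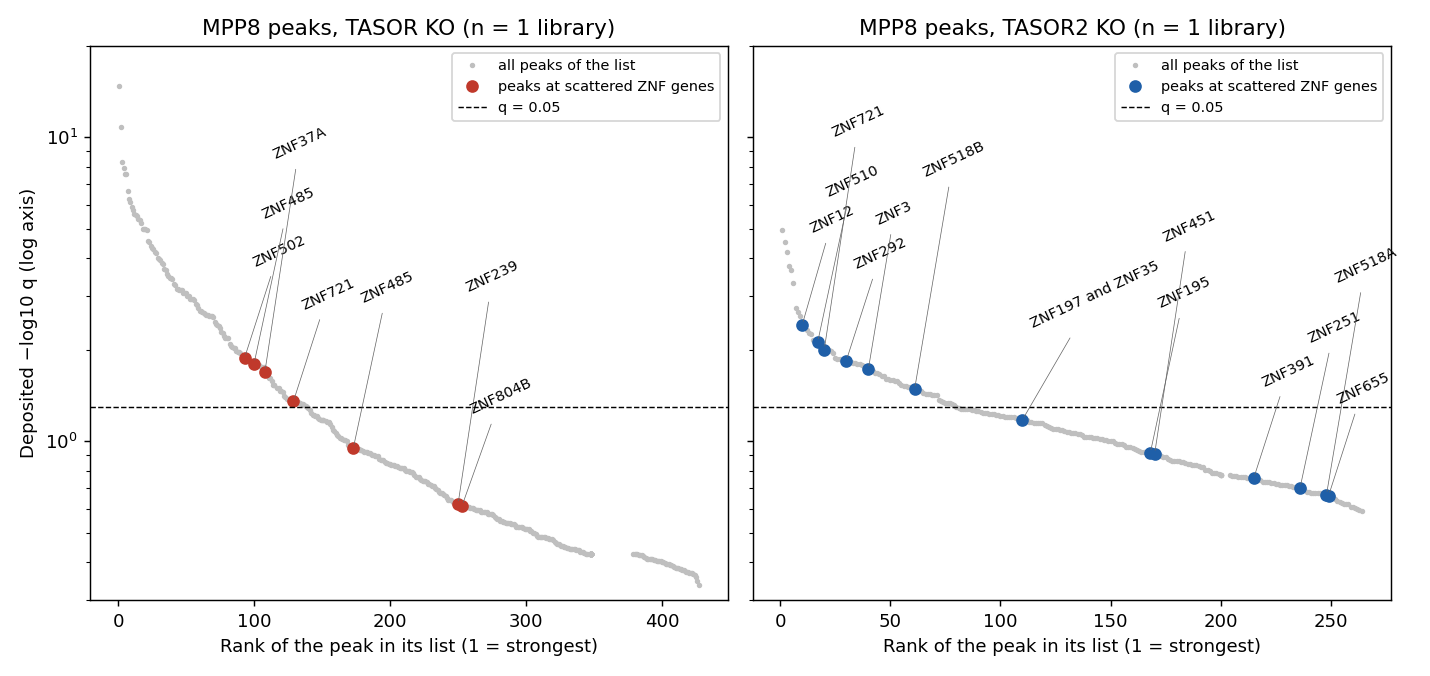
Deposited −log10 q (y axis, log scale) against rank (x axis) for all peaks of each list (grey, 1 library each), with the peaks at scattered ZNF genes coloured and named. The dashed line is a q of 0.05: 4 of 7 TASOR KO and 6 of 13 TASOR2 KO member peaks lie above it.

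The median member peak ranked above the middle of its list, at 129 of 427 in TASOR KO and 110 of 264 in TASOR2 KO. In TASOR KO, 4 of 7 member peaks had a q of 0.05 or less, where 32.3% of that list did, and in TASOR2 KO 6 of 13 had one, where 29.9% of the list did. The median −log10 q of member peaks was 1.36 in TASOR KO (list 0.796) and 1.18 in TASOR2 KO (list 1.06). Member peaks had a median width of 3109 bp in TASOR KO (list 1929 bp) and 2432 bp in TASOR2 KO (list 1881.5 bp). With 7 and 13 peaks these are descriptions, with no test.

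ZNF721 (gene ID 170960, chromosome 4, 439988 to 499156) carried a peak of each list at opposite ends of the gene. The TASOR KO peak, chr4:497601-500720 (3120 bp, fold 3.80, −log10 q 1.36, rank 129 of 427), crossed the upper-coordinate end, and by the 1 kb rule it also met PIGG, which encodes an enzyme of glycolipid anchor synthesis. The TASOR2 KO peak, chr4:440693-442925 (2233 bp, fold 4.54, −log10 q 2.01, rank 20 of 264), lay inside the gene, 705 bp from the lower-coordinate end. The 2 peaks were 54.676 kb apart. Both had a q of 0.05 or less, a pairing seen at 4 protein-coding genes in all (0.02%) and at 2 off chromosome 19 (0.0108%). The others were also ZNF genes: ZNF266 and ZNF850 on chromosome 19 and ZNF268 in the left-out groups. The pairing is thus not particular to the scattered genes. The strand of ZNF721 was not read here, so its ends are given by coordinate.

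Read along the direction of transcription, 3 of 5 TASOR KO peaks at members covered the start and 9 of 12 TASOR2 KO pairs were centred in the later part of the gene. The strand was taken from the RefSeq promoter table, which covers 189 of 238 members. In TASOR KO the peak centres stood at −13.1% (ZNF502), −4.19% (ZNF239), 2.46% and 81.4% (ZNF485) and 43.1% (ZNF37A) of the gene length from the start. In TASOR2 KO the 9 centres beyond the middle stood at 66.5% (ZNF3), 76.4% (ZNF518B), 81.1% (ZNF197), 83.5% (ZNF12), 85.3% (ZNF655), 87.6% (ZNF510), 91.6% (ZNF391), 93.4% (ZNF292) and 94.9% (ZNF195). The 3 exceptions were ZNF518A at 39.4%, ZNF451 at 15.7% and ZNF35 at −17.2%, all with a q above 0.05. Of the 9, ZNF197, ZNF655, ZNF391 and ZNF195 also had a q above 0.05. The lowest TASOR2 KO centres and the highest TASOR KO centre therefore overlap, and 1 TASOR KO peak at ZNF485 lay where TASOR2 KO peaks usually did.

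**Figure D3:**
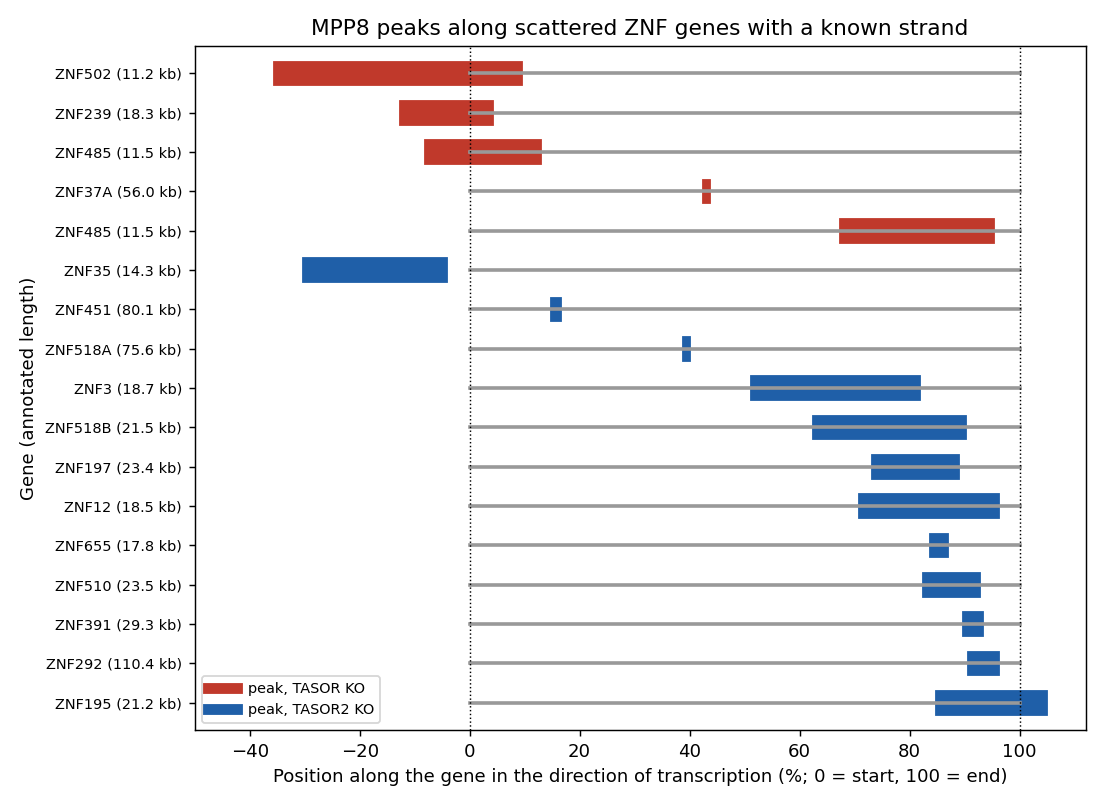
MPP8 peaks (blocks, TASOR KO red, TASOR2 KO blue) along each scattered ZNF gene of known strand (grey lines), in percent of gene length from the start of transcription (x axis). Each row is 1 gene and peak, with the gene length in kb. TASOR KO blocks cover the start of 3 genes, and 9 of 12 TASOR2 KO blocks are centred beyond the middle.

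The members' counts are set beside those over all genes, with no test. Over all protein-coding genes of known strand, a peak within 1 kb of the start made up 46.1% of gene and peak pairs in TASOR KO and 1.14% in TASOR2 KO, beside 3 of 5 (60.0%, 14.7 to 94.7) and 1 of 12 pairs at members. The 1 of 12 is ZNF35, whose peak is 2824 bp from the start in the promoter table, so that by that start the count is 0. Centres beyond the middle of the gene made up 26.3% in TASOR KO and 76.6% in TASOR2 KO, beside 1 of 5 and 9 of 12 (75.0%, 42.8 to 94.5) at members. The median centre was at 82.3% of the gene in TASOR2 KO members, 90.9% in ZNF genes on chromosome 19 and 80.7% over all genes. A peak lay within 1 kb of the transcript end in 2 of 12 TASOR2 KO pairs at members (16.7%), ZNF12 and ZNF195, where the share over all genes was 18.3%, and in 1 of 5 TASOR KO pairs, at ZNF485, where it was 6.47%. Of all 22199 promoters, 114 (0.514%) were met by a TASOR KO peak, 3 of them at members, and 1 (0.0045%) by a TASOR2 KO peak, none at a member.

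Without regard to strand, 4 of the 6 TASOR KO members (66.7%, 22.3 to 95.7) and 4 of the 14 TASOR2 KO members (28.6%, 8.39 to 58.1) carried one close to a gene end, 1 kb or less away, beside 60.4% and 22.3% of all genes with a peak. The intervals overlap widely. Within 5 kb of an end the shares were 66.7% and 78.6% (49.2 to 95.3), beside 65.3% and 53.1%, so that the order of the lists turned. The TASOR2 KO members that entered at the wider window had peaks 1710 to 4154 bp from the nearer end, with ZNF510 and ZNF292 at those limits.

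Several positive members were neighbours. When members no more than 500 kb apart were joined, 121 members fell into 34 groups and 117 stood alone. Grouped members carried a TASOR KO peak in 5 cases (4.13%) and a TASOR2 KO peak in 9 (7.44%), and lone members in 1 (0.855%) and 5 (4.27%), where 1.12% and 0.893% of all protein-coding genes had one. Only 9 of the 34 groups held a positive member, and the largest, of 13 genes on chromosome 16, and the next, of 10 genes on chromosome 7, held none. The 6 and 14 genes thus come from 5 and 12 separate places. Lone positives were ZNF804B in TASOR KO and ZNF195, ZNF292, ZNF451, ZNF518A and ZNF518B in TASOR2 KO, that is, 1 of 6 and 5 of 14 positive members.

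On chromosome 10, ZNF487, ZNF239, ZNF485 and ZNF32 span 212.034 kb and held a run of 5 TASOR KO peaks over 55.867 kb and no TASOR2 KO peak. The strongest of the 5, chr10:43620209-43629694 (9486 bp, fold 5.64, −log10 q 5.49, rank 14 of 427), met no protein-coding gene by the rule. It began 2305 bp beyond the transcript end of ZNF485 and ended 14168 bp from ZNF32. The strongest of these TASOR KO peaks therefore lay between protein-coding genes, and other gene types were not examined. The nearest TASOR2 KO peak lay 1037.704 kb from the ZNF239 peak.

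On chromosome 3, the 7 members from ZNF445 to ZNF501 span 305.379 kb and held 1 TASOR KO peak, at the start of ZNF502, and 1 TASOR2 KO peak inside ZNF197. These were 62.773 kb apart. A further TASOR2 KO peak lay at KIAA1143, 44.331 kb beyond the ZNF502 peak. On chromosome 4, the 5 members from ZNF595 to ZNF721 held 3 TASOR KO peaks within 259.238 kb and 1 TASOR2 KO peak. ZNF721 was the only one of the 5 that met the rule, and the other 2 TASOR KO peaks lay 19.339 kb from ZNF141 (rank 348) and 26.685 kb from ZNF732 (rank 227). The groups on chromosomes 3 and 4 were the 2 with peaks of both lists at members.

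**Figure D4:**
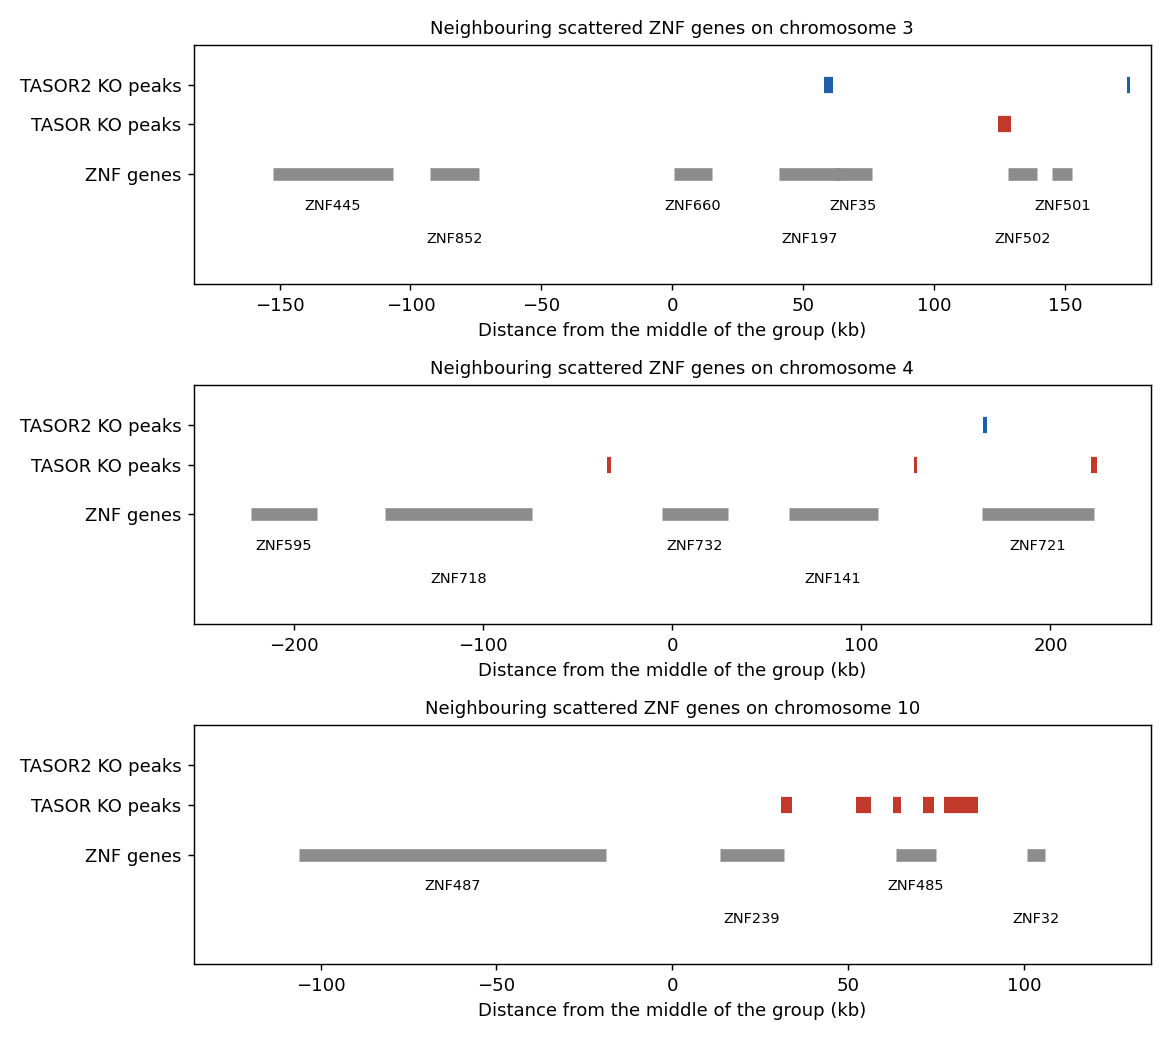
Scattered ZNF genes (grey) and all deposited MPP8 peaks of TASOR KO (red) and TASOR2 KO (blue), by distance in kb from the middle of 3 groups of neighbours (x axis). Chromosome 10 shows 5 TASOR KO peaks and no TASOR2 KO peak, and the groups on chromosomes 3 and 4 have peaks of both lists.

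On chromosome 7, TASOR2 KO peaks met 3 of 24 members, ZNF12, ZNF655 and ZNF3, where 0.893% of all protein-coding genes had one. Of the chromosomes with members, this one held the most peaks of both lists, 90 in TASOR KO and 44 in TASOR2 KO. The share over all genes of chromosome 7 was not computed, so the genome-wide share is not a like comparison. Besides its main peak, ZNF12 had another TASOR2 KO peak 2241 bp beyond its transcript end, chr7:6684796-6686192 (fold 3.89, −log10 q 1.02). The group with ZNF789, ZNF394, ZNF655 and ZNF3 held 4 TASOR2 KO peaks and no TASOR KO peak. Besides those at ZNF655 and ZNF3, a peak met ZSCAN25 and CYP3A5 and another met no protein-coding gene by the rule. Chromosome 16 has 23 scattered members and chromosome 5 has 13, and none of them had a peak, although the lists hold 12 and 10 peaks on chromosome 16 and 20 and 19 on chromosome 5. These chromosomes were chosen for having no positive member, and at shares of 2.52% and 5.88% few would be met in 23 or 13 genes.

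Few members lay just outside the rule. No further member had a TASOR KO peak within 5 kb, and the nearest was ZNF32 at 14168 bp. In TASOR2 KO, ZNF184 lay 2053 bp from the ZNF391 peak, and the next, ZNF501, was 20966 bp from a peak. At the inner edge of the rule, ZNF35 was 598 bp from its peak. At a distance of 100 kb or less from a TASOR KO peak were 23 of 218 members (10.6%, 6.81 to 15.4), against 3.12% of protein-coding genes off chromosome 19 that are not ZNF genes. For TASOR2 KO the count was 29 of 212 (13.7%, 9.36 to 19.1), against 2.52%. Members in a group are counted from the same peaks, so these intervals are too narrow.

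Annotated gene length had a median of 37.115 kb in the 6 TASOR KO members (range 11.172 to 578.829), 23.4855 kb in the 14 TASOR2 KO members (14.286 to 110.379) and 24.064 kb in the 219 without a peak. Over all protein-coding genes it was 24.115 kb.

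Related zinc finger families off chromosome 19 gave small counts by the same overlap rule. The dense groups left out for the members were not left out for these families. Their shares are therefore not a like comparison with those of the members. Whether the positive genes of these families lie in those groups is not shown here. Of 21 ZSCAN and ZKSCAN genes, which combine a SCAN domain with zinc fingers, ZSCAN32 had peaks of both lists and ZSCAN25 a TASOR2 KO peak. The shares were 4.76% (0.120 to 23.8) in TASOR KO and 9.52% (1.17 to 30.4) in TASOR2 KO. Of 14 numbered ZFP genes, ZFP62 had a TASOR2 KO peak (7.14%, 0.181 to 33.9). No peak of either list met any of 38 ZBTB genes, which pair a BTB domain with zinc fingers (0%, upper bound 9.25%). A further 14 genes were for cofactors of KRAB proteins and the lysine 9 methylation machinery, with TASOR, TASOR2, MPHOSPH8, PPHLN1 and MORC2 among them. TASOR2 had a TASOR KO peak and ATF7IP2, a paralog of the SETDB1 partner ATF7IP, a TASOR2 KO peak, while TRIM28 had none. Each list thus met 7.14% of these genes (0.181 to 33.9). SETDB1 had no TASOR2 KO peak, and for TASOR KO it could have none, since that list is empty on its chromosome, number 1. Whether others of the 14 lie on chromosomes where a list is empty was not checked.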

How the data were processed

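MPP8 ChIP-seq peak lists of 2 of 15 samples were used, grouped by sample title, 1 library per genotype; the other 13 were left aside. Reads were handled with Bowtie2 2.3.5.1, MACS2 and deepTools on hg38 and mm9, per the submitters' processing notes; per the labels' protocols, mouse chromatin was added as a spike-in. For calling thresholds and the control library, the sources used here say nothing. The deposited lists have 9 columns in the order of MACS2 broad peaks: a score, a fold enrichment (ratio), −log10 p and −log10 q, all set by the authors per peak. Peak names carry a tag of 0.5 (TASOR KO) and 0.3 (TASOR2 KO), and q reached at most 0.460 and 0.258, so the lists may differ by threshold as well as genotype.

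Genes came from a RefSeq table (GRCh38.p14), and strand and promoters from the RefSeq promoter table. Gene ends are the outermost annotated bases, also where that table lists several starts. An overlap was 1 bp or more. Intervals are exact (Clopper-Pearson, 95%). Every member with a peak is named. The members, lists and rules were chosen with earlier results of these data known. The planned protein features were not analysed here, as no protein sequences were used. The overlap step was tested on simulated peaks. No p-value was computed. Software: matplotlib 3.10.9, scipy 1.17.1, pandas 2.3.3 and numpy 2.4.6 under Python 3.11.15.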

Additional observations from a re-analysis of the deposited data

How the results depend on the processing

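Of 64 alternative values over 7 results, 59 stayed within 1.5 times the count, or within the interval of the share, and 5 did not. Members with a TASOR2 KO peak fell from 14 to 6 with peaks at a q of 0.05 or less and to 8 with the higher-scoring 132 peaks, since weaker peaks were left out. Under those settings TASOR KO had 4 and 4 members, so the order of the lists held but narrowed. Members with peaks of both lists went from 1 to 0 without peaks that also meet another gene, as the TASOR KO peak at ZNF721 also meets PIGG, and to 2 when groups of neighbours were counted, an alternative chosen after seeing the data. The share of TASOR2 KO members with a peak at an end went from 28.6% to 78.6% with ends of 5 kb. Leaving out chromosome 1, 7, or 9 and 22, the gene body alone, a window of 5 kb, equal numbers of peaks and a common q left the member counts at 5 or 6 in TASOR KO and 11 to 15 in TASOR2 KO. Members make up 238 of 20037 protein-coding genes, and both lists also hold peaks that meet no protein-coding gene. Of the TASOR KO list, 7 peaks in 427 were at members (1.64%, 0.662 to 3.35). The TASOR2 KO list had 13 in 264 (4.92%, 2.65 to 8.27). These shares stayed within their intervals, but moved by over 1.5 times with some sets of peaks: the TASOR KO share was 2.65% with equal numbers of peaks, 2.63% at the common q and 2.90% at a q of 0.05 or less, where the TASOR2 KO share was 4.92%, 4.92% and 7.59%. No paired analysis was possible because there was a single library of each kind, and leaving out a library was likewise impossible.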
